A study of Homo sapiens with 3 samples.

Results

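The genes described here are 46 members of the DNA replication machinery, taken by gene symbol from a list drawn up with earlier results of these data known: origin licensing factors, helicase subunits, replicative polymerases, the sliding clamp and its loaders, and chromatin assembly factors. All 46 had a probe, among 20046 genes with a named probe, and together they had 69 probes. RNA came from MDA-MB-231, an established human breast carcinoma line of mesenchymal-like type derived from a pleural effusion, which the series describes as deficient in ASS1, the argininosuccinate synthase that cells need to make their own arginine. The sample called arginine return was kept for 24 h in 0.3 µg/ml ADI-PEG20, followed by 24 h with 420 µg/ml L-arginine. For it the label cuts short the unit of the ADI-PEG20 dose. Another was kept in 0.3 µg/ml ADI-PEG20 for 48 h, and the third was left untreated for 48 h. The drug, arginine deiminase joined to polyethylene glycol, degrades the arginine of the medium. Each sample was 1 array, all from the same line and serum-containing medium, and no sample had a replicate. No difference below could therefore be tested, and every one compares these arrays only. No array shows cells after 24 h of ADI-PEG20, so the level of any transcript when arginine was added is unknown.

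DNA replication starts at origins marked by the origin recognition complex, where CDC6 and CDT1 load the ring of MCM2 to MCM7 and geminin blocks a second loading. A kinase of CDC7 and DBF4, together with CDC45 and the GINS complex, turns the loaded ring into a moving helicase. Polymerase alpha-primase then lays down primers, polymerases epsilon and delta extend them on the clamp PCNA, and FEN1 and LIG1 join the lagging strand. Many of these genes are transcribed mainly in cells that are about to enter or are in S phase, and E2F factors are known regulators of them.

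Values are scanner intensities as deposited. Differences are on the log2 scale after background correction, where 1 is 2-fold, and are positive where the sample named first is higher. A probe counted as above background beyond an intensity of 163.6, and 37.9% of probes did so on each array. The members' own probes lay in this range on all 3 arrays for 41 genes, while CHAF1A, CLSPN, DBF4, GINS1 and GINS4 were below it on at least 1 array. A gene was represented by its brightest probe. A second probe of the same gene put the error of an ADI-PEG20 difference at 0.22 (SD over 2532 genes), which covers probes and not cultures. In bulk RNA, fewer cells in S phase and less RNA per cell cannot be told apart. Of the line's 6 mesenchymal markers, VIM, CD44, CAV1 and AXL were above background on all arrays and SPARC and FN1 on none. The luminal markers ESR1, PGR and FOXA1 were below background on every array. CDH1, an epithelial adhesion gene, had 293 after arginine return, 374 under ADI-PEG20 and 245 in untreated cells, a difference of 1.03 under ADI-PEG20. EPCAM, another, had 1002, 1484 and 1009, a difference of 0.62. GATA3, a luminal factor, was above background only under ADI-PEG20, at 174. These luminal markers were thus highest on the ADI-PEG20 array, while the keratins KRT8 and KRT19, which make up most of the list's sum, were lowest there. The summed intensity of the 9 luminal markers was 6414 after arginine return, 5935 under ADI-PEG20 and 6250.4 in untreated cells. Leukocyte markers summed to 3826, 3788 and 3918 in the same order of arrays, with CD14 and CD68 above background on all arrays and PTPRC, CD3E and LYZ on none. CD68, a lysosomal gene, held most of that sum, at 3024, 2990.1 and 3100.3. Endothelial markers summed to 694, 697 and 713, fibroblast markers to 1148, 1161 and 1088. Much of both sums is background, since 4 of 5 endothelial and 3 of 6 fibroblast markers were above it on no array. Within the fibroblast list LUM differed by 0.60 and PDGFRB by -0.40 under ADI-PEG20, both above background on all arrays. COL1A2, close to the limit, differed by 0.62 after arginine return against untreated. The part of these markers in the results was not tested.

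The promoters of the genes that differed most between the ADI-PEG20 and the untreated array are shown first, since E2F factors are known to act at such sequences. They are POLA2, CDC45 and LIG1, the only members with a 2-fold or larger difference there. TIPIN, GINS1 and POLD2, the members with the smallest difference, are set beside them. The GINS1 probe lay at the background limit on every array, so its small difference says little. Each line holds the 250 bases before the annotated start of the gene, 5′ to 3′ on the gene's strand, from RefSeq on GRCh38.p14. Capitals mark the 7-letter E2F-type words TTCCCGC or TTGGCGC or TTCGCGC or TTGCCGC or TTGGCGG on either strand. The last of these was added after the sequences had been read. POLA2 lies at chr11:65261712-65261961 on the plus strand, CDC45 at chr22:19479670-19479919 on the plus strand and LIG1 at chr19:48170345-48170594 on the minus strand. TIPIN lies at chr15:66386718-66386967 on the minus strand, GINS1 at chr20:25407423-25407672 on the plus strand and POLD2 at chr7:44123549-44123798 on the minus strand.
POLA2: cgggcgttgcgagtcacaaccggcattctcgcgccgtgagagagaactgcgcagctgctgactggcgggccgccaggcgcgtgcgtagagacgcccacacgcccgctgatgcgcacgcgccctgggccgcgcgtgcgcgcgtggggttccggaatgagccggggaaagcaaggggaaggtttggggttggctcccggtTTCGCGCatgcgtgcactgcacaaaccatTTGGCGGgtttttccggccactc
CDC45: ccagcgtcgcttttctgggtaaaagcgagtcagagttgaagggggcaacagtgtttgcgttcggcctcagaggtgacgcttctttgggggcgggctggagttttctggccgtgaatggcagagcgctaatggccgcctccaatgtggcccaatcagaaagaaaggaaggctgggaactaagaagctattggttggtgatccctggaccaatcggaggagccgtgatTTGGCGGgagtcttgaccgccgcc
LIG1: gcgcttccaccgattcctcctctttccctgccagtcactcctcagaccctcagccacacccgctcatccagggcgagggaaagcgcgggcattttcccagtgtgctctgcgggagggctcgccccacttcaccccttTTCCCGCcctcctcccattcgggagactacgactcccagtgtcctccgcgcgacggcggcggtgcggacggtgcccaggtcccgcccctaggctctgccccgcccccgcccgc
TIPIN: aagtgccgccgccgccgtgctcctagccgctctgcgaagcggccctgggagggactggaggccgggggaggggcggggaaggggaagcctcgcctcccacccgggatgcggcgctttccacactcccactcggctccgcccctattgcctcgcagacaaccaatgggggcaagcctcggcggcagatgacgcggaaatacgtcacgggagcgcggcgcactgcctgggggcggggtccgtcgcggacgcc
GINS1: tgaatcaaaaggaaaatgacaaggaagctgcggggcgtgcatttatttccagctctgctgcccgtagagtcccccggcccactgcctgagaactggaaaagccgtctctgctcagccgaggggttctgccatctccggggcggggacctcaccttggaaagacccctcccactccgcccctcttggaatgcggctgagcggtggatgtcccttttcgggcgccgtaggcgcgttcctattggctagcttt
POLD2: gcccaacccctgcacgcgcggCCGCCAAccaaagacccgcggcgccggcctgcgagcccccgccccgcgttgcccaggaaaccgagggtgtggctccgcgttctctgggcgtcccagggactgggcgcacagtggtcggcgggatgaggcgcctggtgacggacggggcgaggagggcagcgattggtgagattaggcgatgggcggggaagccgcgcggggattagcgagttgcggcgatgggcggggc

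In POLA2 the words began 52 and 23 bases before the start, and in CDC45 a single word began 24 bases before it. The word nearest the start in both, TTGGCGG, is the one added after these sequences had been read. Its presence in both therefore follows from that choice and is not a result. CDC45 held none of the other words. LIG1 held 1 word in the stretch shown, 113 bases before the start. TIPIN and GINS1 held none there and POLD2 held 1, 229 bases before the start and on the opposite strand. A promoter of 300 bases, which adds 50 bases after the start, was found for 39 members. In that window POLA2 held 2 words, CDC45 1 and LIG1 3, while TIPIN held 0, GINS1 1 and POLD2 2.

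Among those 39 promoters 32 held an E2F-type word, or 82.1%, against 15.8% of 27305 promoters in the RefSeq table and 24.7% of the 9001 promoters of genes that entered the ADI-PEG20 comparison. Without the added word the counts were 29 members, 13.1% of all promoters and 20.6% of those 9001. The word CCAAT, in either orientation, was in 22 of the 39 (56.4%), against 35.7% of all promoters and 37.5% of genes above background. It was not particular to the members, with 58.6% in other replication factors and 71.8% in mitosis genes. The CHR words TTTGAA and TTCGAA, known from genes of late cell cycle stages, were in 2 of the 39 (5.13%), those of DBF4 and MCM6, against 16.6% of all promoters and 11.5% of those of genes above background. In mitosis genes the order was the other way round, with CHR words in 29 of 39 promoters and E2F-type words in 17. Without the added word, E2F-type words were in 13 of these 39. E2F-type words were in 14 of 17 promoters of members that were 1.5-fold or more lower under ADI-PEG20. They were in 18 of 22 of the other members. Without the added word, which was chosen after promoters of the lowest members were read, these were 12 of 17 and 17 of 22. Promoters of members had a median GC content of 65.7% against 58.3% of all promoters, and 65.0% of genes above background. A match of letters is not a measured binding site.

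**Figure D1:**
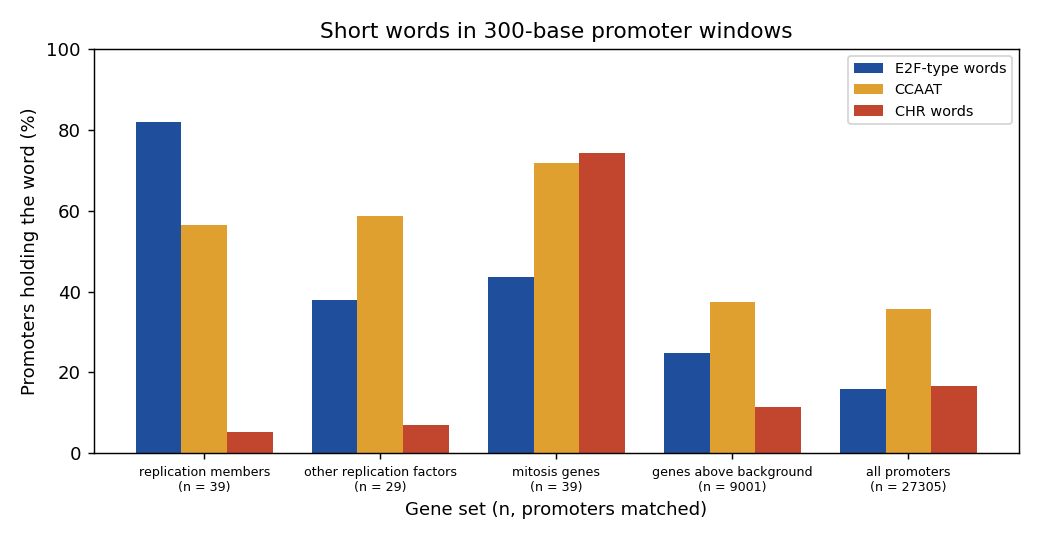
Share of promoters (vertical axis, %) that hold at least 1 E2F-type, CCAAT or CHR word within 300 bases, for the replication members, other gene sets and all promoters (horizontal axis, with the number of promoters). The members stand at 82.1% for E2F-type words and the mitosis genes at 43.6%, while CHR words are in 5.13% and 74.4% of them. The E2F-type words include TTGGCGG, added after promoters of members had been read. Without it the members stand at 74.4% and the mitosis genes at 33.3%.

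The first comparison asked which replication transcripts differed between cells given ADI-PEG20 for 48 h and untreated cells. Most were lower under ADI-PEG20, by amounts mostly under 2-fold. Of the 46 members 41 were lower by any amount, against 50.3% of the 11094 genes compared, and 5 were higher, against 49.6%. A difference of 1.5-fold or more downward was reached by 21 members (45.7%), against 9.33% of all genes, and 2-fold by 3, against 2.13%. No member was 1.5-fold or more higher, against 7.91% of all genes, or 1.74% at 2-fold. The median difference of the members was -0.58, and that of all genes was 0.00 to 2 decimals. Taking for each dim gene the smallest difference its background allows, 19 members were 1.5-fold or more lower, against 7.25% of all genes. With an offset of 50 the count was 14, against 5.21%. Without background correction 13 were, against 2.93% of all genes.

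The second comparison asked whether the transcripts differed after 24 h with arginine from those under continued ADI-PEG20. Of the 46 members 42 were higher after arginine return, against 49.8% of 11073 genes. The median difference was 0.65, again with a median of all genes at 0.00. A difference of 1.5-fold or more upward was reached by 27 members (58.7%), against 9.87% of all genes. At 2-fold there were 4, against 2.06%: CHAF1A, LIG1, CDC45 and GINS4. Without background correction the median was 0.42, 15 members were 1.5-fold or more higher, against 3.04% of all genes, and 0 were 2-fold higher, against 0.434%. The exceptions, lower after arginine return than under ADI-PEG20, were the 4 genes WDHD1, POLD2, RPA2 and GINS1, where 50.1% of all genes were lower. No member reached 1.5-fold downward, against 8.87% of all genes, or 1.89% at 2-fold. Both comparisons use the same ADI-PEG20 array.

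After arginine return no member was 1.5-fold or more away from untreated cells in either direction. Of all 11033 genes 2.65% were lower and 2.56% higher (0.335% and 0.353% at 2-fold). Those shares come largely from dim genes. Of genes above background on both arrays, 45 of them members, 0.715% were lower and 0.775% higher by 1.5-fold. Without background correction 0.00907% were lower and 0.0363% higher. The absence of members past 1.5-fold is therefore near what all well-measured genes showed. The median of the members was 0.07, with 30 higher, against 48.6% of all genes, and 16 lower, against 51.3%. The range ran from -0.51 for POLA2 to 0.54 for CHAF1A. This comparison shares the untreated array with the first and the arginine return array with the second.

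**Figure D2:**
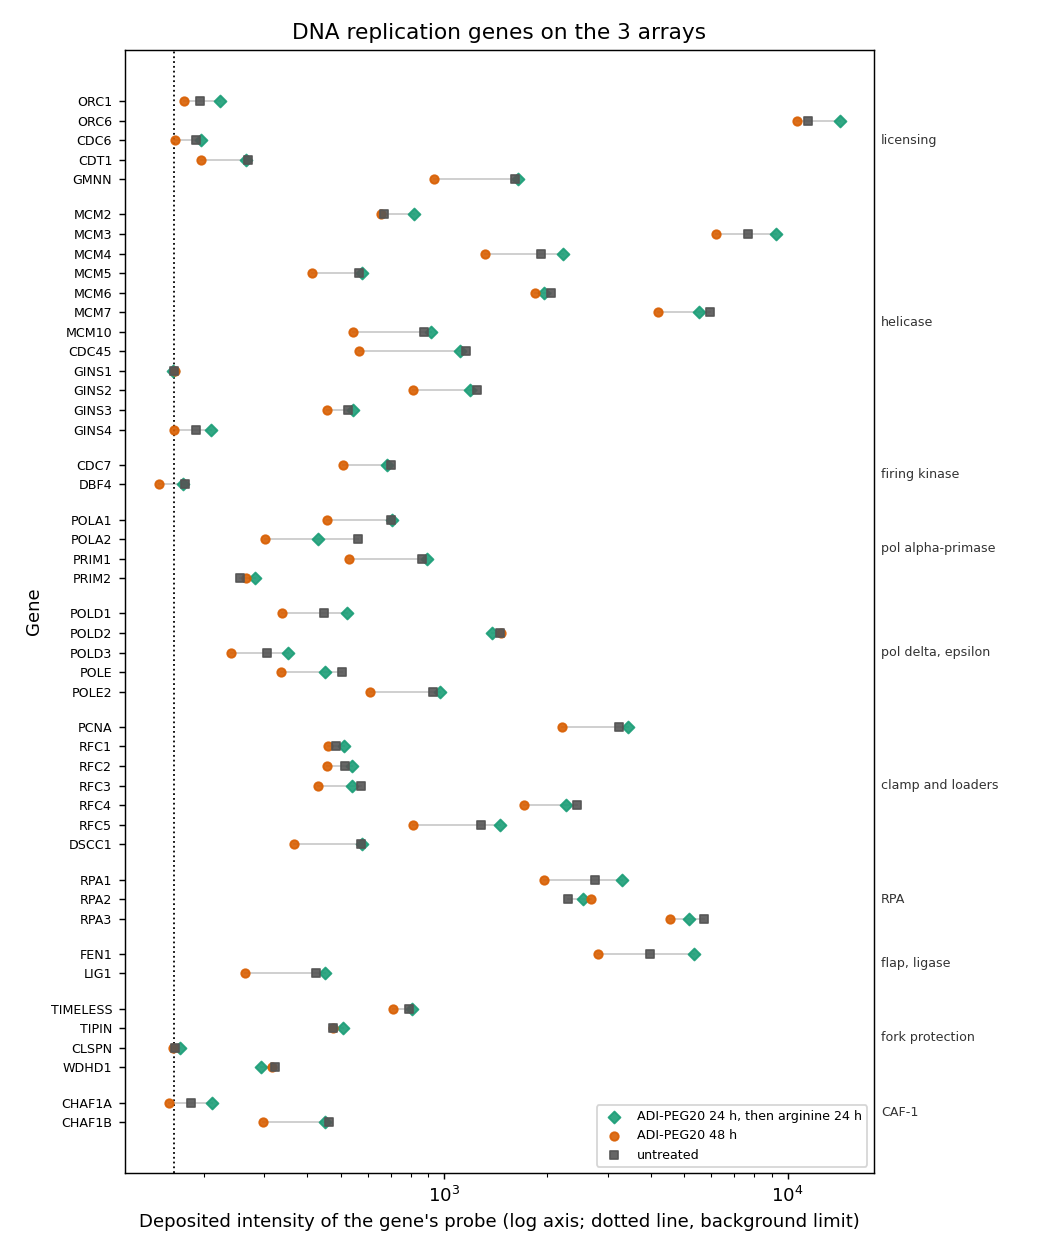
Deposited intensity of each member's brightest probe (horizontal log axis) on the arginine return array (diamonds), the ADI-PEG20 array (circles) and the untreated array (squares), with genes grouped by role down the page. For most genes the circle lies left of both other points, as for CDC45 at 566 under ADI-PEG20. The dotted line at 163.6 is the background limit, and intensities of different genes are not comparable.

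Among the licensing factors, all 5 members were lower under ADI-PEG20 than in untreated cells, against 50.3% of all genes. Their median was -0.65. CDT1, the factor that brings the MCM ring to origins, had an intensity of 265 after arginine return, 196 under ADI-PEG20 and 269 in untreated cells. The ADI-PEG20 array was low and the other arrays lay close together, with a difference of -0.99 under ADI-PEG20, or -0.46 without background correction. GMNN, which encodes the CDT1 inhibitor geminin, had 1644, 937 and 1605 on the same arrays, far above background, and differed by -0.86 under ADI-PEG20 and by 0.90 on arginine return. Loader and inhibitor were thus both lower on the ADI-PEG20 array.

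CDC6, the loading ATPase, had 196 after arginine return, 165 under ADI-PEG20 and 190.3 in untreated cells, all close to the background limit, and differed by -0.65 under ADI-PEG20, or -0.20 without background correction. ORC1, the largest ORC subunit, had 224, 175 and 195 on these arrays. Its ADI-PEG20 difference was -0.44, or -0.15 without background correction. Its value after arginine return lay above the untreated value by 0.47, or by 0.20 without background correction. ORC6, another subunit of the origin recognition complex, behaved differently. Its brightest probe had 14160.0 after arginine return, 10617 under ADI-PEG20 and 11488 in untreated cells, and a second probe had 659, 531 and 541. The differences under ADI-PEG20 were -0.11 and -0.03, both within the probe error. On arginine return both probes were above the untreated array, by 0.30 and 0.36.

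Of the 12 helicase genes 11 were lower under ADI-PEG20, with a median of -0.55, and 5 of them by 1.5-fold or more. Of all genes 50.3% were lower, and 9.33% by 1.5-fold or more. CDC45, the subunit that joins the MCM ring to make the active helicase, had 1116 after arginine return, 566 under ADI-PEG20 and 1161 in untreated cells. It was 2.34-fold lower under ADI-PEG20 (-1.23) and 2.24-fold higher after arginine return than under ADI-PEG20 (1.16). The arginine return and untreated arrays differed by -0.06. CDC45 was the only member past 2-fold under ADI-PEG20 when no background was subtracted, at -1.04, where 0.451% of all genes were 2-fold lower.

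MCM10, which helps the helicase to start and to recruit polymerase alpha, had 914 after arginine return, 545 under ADI-PEG20 and 877 in untreated cells. A second probe had 334, 252 and 381. The ADI-PEG20 difference was -0.84 on the first probe and -0.99 on the second, so both probes placed the gene low on that array. On arginine return against untreated they disagreed in sign, at 0.07 and -0.28.

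The 6 subunits of the MCM ring, which work as a single hexamer, were not equally low. Their ADI-PEG20 differences ran from -0.60 to -0.04, with a median of -0.42. MCM5 had 577 after arginine return, 414 under ADI-PEG20 and 564 in untreated cells (-0.60 under ADI-PEG20, or -0.45 without background correction). MCM4 had 2218, 1318 and 1913 (-0.58). MCM2 had 818, 656 and 669.9, a difference of -0.04, and MCM6 had 1953, 1835 and 2041, a difference of -0.16. These subunits lay within the probe error of no difference under ADI-PEG20.

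Second probes gave -0.39 for MCM4, -0.25 for MCM3 beside -0.32 on its brightest probe, and -0.61 for MCM7 beside -0.51. On arginine return against ADI-PEG20 all 6 were higher, against 49.8% of all genes, from 0.10 for MCM6 to 0.81 for MCM4. Against untreated cells the largest difference after arginine return in the ring was that of MCM2, 0.35, and both probes of MCM3 were higher, by 0.27 and 0.32. MCM6 and MCM7 were at -0.07 and -0.10.

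The GINS complex, a 4-subunit part of the same helicase, also varied. GINS2 had 1186 after arginine return, 812 under ADI-PEG20 and 1244 in untreated cells, with an ADI-PEG20 difference of -0.70. GINS3 had 543, 458 and 524, a difference of -0.26. GINS4 had 209, 163.5 and 189, just below the background limit on the ADI-PEG20 array, and after background correction was at least 1.60-fold lower there. After arginine return it was at least 2.08-fold higher than under ADI-PEG20, again after correction. Without correction GINS4 differed by -0.21 and 0.36, so neither fold is a bound on the deposited values. GINS1 had 162, 164 and 164, at the background limit on every array, so its probe carries little information.

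Both subunits of the kinase that fires origins were lower under ADI-PEG20, where 50.3% of all genes were lower. CDC7, the catalytic subunit, had 684 after arginine return, 509 under ADI-PEG20 and 703 in untreated cells, a difference of -0.58, just under 1.5-fold. DBF4, its activating subunit, had 173, 148 and 176, and was below background only on the ADI-PEG20 array. After background correction DBF4 was at least 1.29-fold lower there, and the difference of -0.93 rests on dim values. Without correction it was -0.25.

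**Figure D3:**
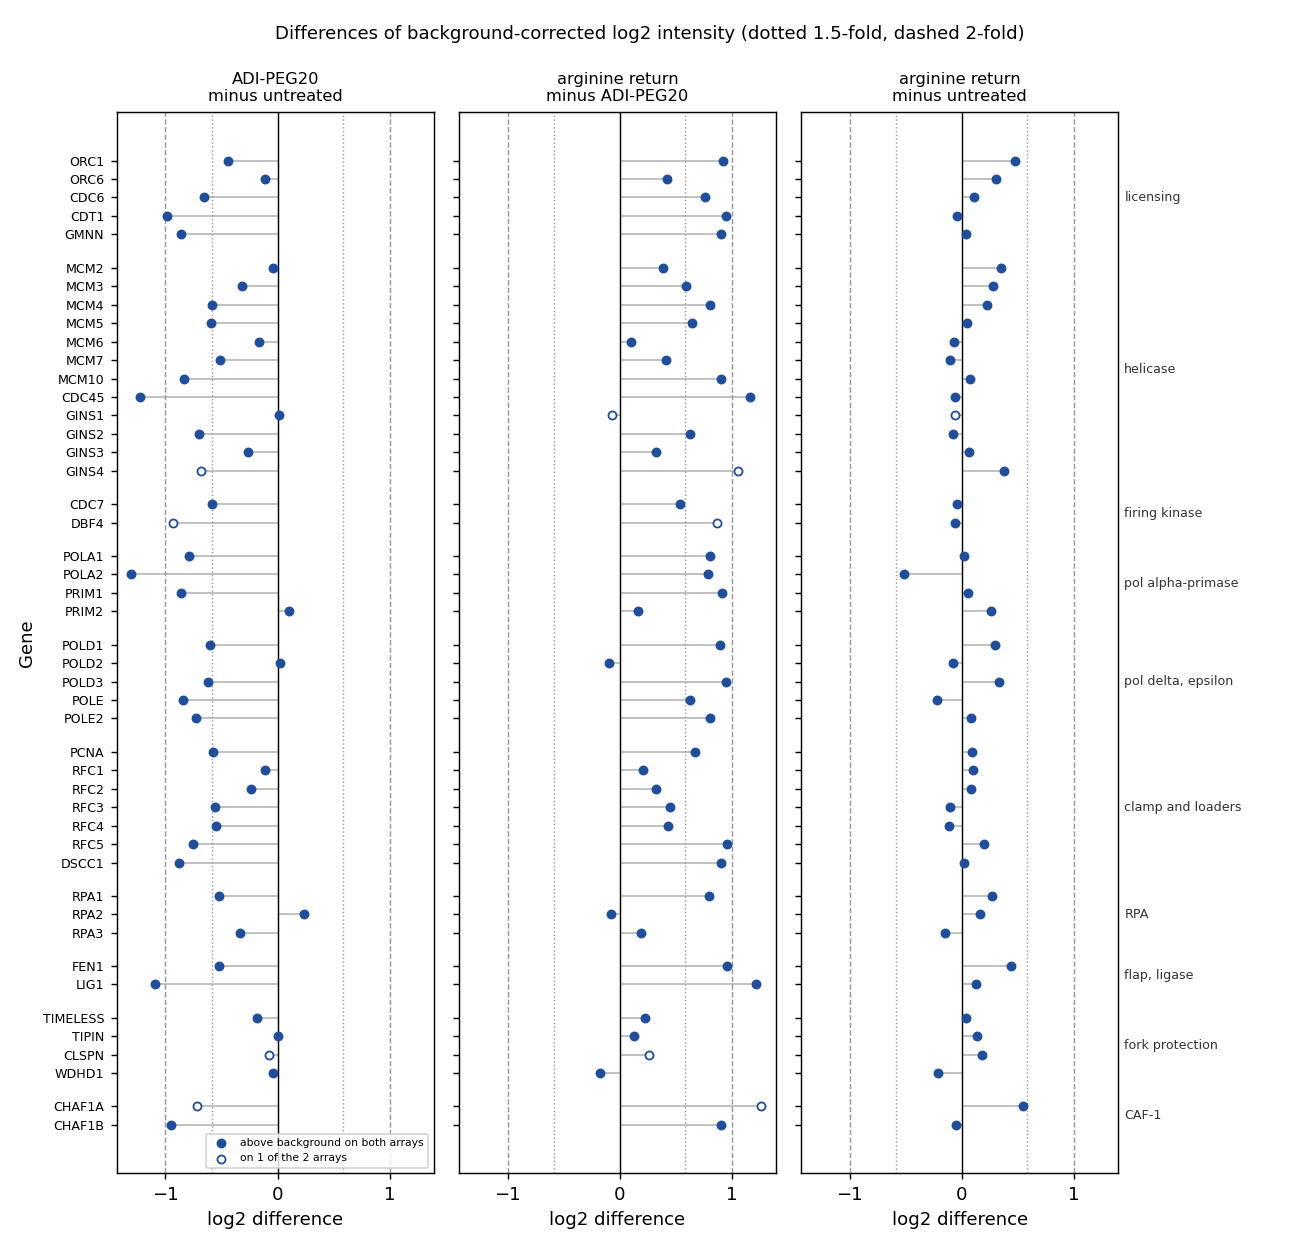
Difference of background-corrected log2 intensity (horizontal axes) for each of the 46 members, grouped by role, in 3 panels: ADI-PEG20 minus untreated, arginine return minus ADI-PEG20, and arginine return minus untreated. Open circles mark genes above background on 1 of the 2 arrays. In the first panel 41 genes lie left of 0, in the second 42 lie right of it, and in the third all lie within the 1.5-fold lines.

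Polymerase alpha-primase held both the lowest member and one of the flat ones. POLA2, the accessory B subunit, had 430.5 after arginine return, 300.3 under ADI-PEG20 and 563 in untreated cells. It was 2.47-fold lower under ADI-PEG20 (-1.30) and 1.73-fold higher after arginine return than under ADI-PEG20. It was also the member furthest below untreated cells after arginine return, at -0.51, where the probe error of that comparison was 0.19. This gene had a single probe, and without background correction the differences were -0.91 and -0.39.

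POLA1, the catalytic subunit, had 707 after arginine return, 457 under ADI-PEG20 and 701 in untreated cells, and differed by -0.79 under ADI-PEG20 and 0.02 after arginine return against untreated. PRIM1, the catalytic primase subunit, had 891, 530.0 and 864, and on a second probe 741, 424 and 772. Its ADI-PEG20 differences were -0.86 and -1.10, the second past 2-fold. PRIM2, the other primase subunit, had 281, 264 and 255, with an ADI-PEG20 difference of 0.10. Of the primase subunits, PRIM1 was thus low on the ADI-PEG20 array and PRIM2 was not.

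In the polymerases that copy the strands, 4 of 5 members were 1.5-fold or more lower under ADI-PEG20, against 9.33% of all genes. POLE, the catalytic subunit of polymerase epsilon, had 450.4 after arginine return, 335 under ADI-PEG20 and 505 in untreated cells, a difference of -0.85. After arginine return POLE lay 0.22 below untreated cells, near the probe error of 0.19 in that comparison. Its partner POLE2 had 976, 609.7 and 928, a difference of -0.72. POLD1, the catalytic subunit of polymerase delta, had 522, 337 and 448, a difference of -0.60. These 3 genes had their lowest value on the ADI-PEG20 array. Without background correction POLE and POLE2 were still past 1.5-fold, at -0.59 and -0.61, against 2.93% of all genes lower. POLD1 and POLD3 were not, at -0.41 and -0.34.

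POLD3, a further delta subunit, had 351 after arginine return, 240.2 under ADI-PEG20 and 305 in untreated cells, a difference of -0.62 under ADI-PEG20 (-0.34 without background correction) and of 0.33 after arginine return against untreated. POLD2, which links the delta subunits, had 1381, 1468 and 1452, a difference of 0.02 under ADI-PEG20. A second probe of POLD2 gave -0.10 there. On arginine return against ADI-PEG20 its probes disagreed in sign, at -0.10 and 0.36.

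All 7 clamp and loader genes were lower under ADI-PEG20, against 50.3% of all genes, with a median of -0.56. Of these 2 were 1.5-fold or more lower, against 9.33% of all genes. PCNA, the sliding clamp, had 3429 after arginine return, 2205 under ADI-PEG20 and 3229 in untreated cells, 1.49-fold lower under ADI-PEG20. A dimmer probe of PCNA had 248, 229 and 254 and gave -0.30, and the dimmest stayed below background. DSCC1, a subunit of an alternative clamp loader, had 579, 366 and 573, a difference of -0.88.

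The 5 subunits of replication factor C, the main clamp loader, differed in size under ADI-PEG20. RFC5 had 1455 after arginine return, 811 under ADI-PEG20 and 1282 in untreated cells, a difference of -0.75. RFC3 and RFC4 were at -0.56 and -0.55, with -0.19 and -0.41 on second probes. RFC2 was at -0.24 (second probe -0.46), and RFC1, the large subunit, at -0.11 (second probe 0.20). Among the 14 members with at least 2 probes above background on all arrays, the probes of RFC1 and POLD2 differed in sign in this comparison. Only RFC5 was past 1.5-fold on arginine return against ADI-PEG20, at 0.95, where 9.87% of all genes were 1.5-fold or more higher.

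The 3 subunits of RPA, which coats single-stranded DNA, did not share a direction under ADI-PEG20. RPA1, the large subunit, had 3286 after arginine return, 1949.7 under ADI-PEG20 and 2751 in untreated cells. Its 3 probes gave -0.52, -0.77 and -0.59 under ADI-PEG20, and 0.79, 0.99 and 0.73 on arginine return against ADI-PEG20. Every probe of RPA1 therefore had its lowest intensity on the ADI-PEG20 array.

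RPA2, the middle subunit, had 2544 after arginine return, 2671 under ADI-PEG20 and 2292 in untreated cells, and at 0.23 was the highest member under ADI-PEG20. RPA3, the small subunit, had 5171, 4555 and 5719.9, a difference of -0.34. RPA1 and RPA3 were thus lowest on the ADI-PEG20 array, and RPA2 was highest there. The RPA2 value rests on a single probe, and 0.23 is near the probe error of 0.22. On arginine return against ADI-PEG20 RPA2 differed by -0.07.

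The genes that finish the lagging strand were both lower under ADI-PEG20, against 50.3% of all genes. LIG1, the DNA ligase, had 451 after arginine return, 263 under ADI-PEG20 and 424 in untreated cells. It was 2.13-fold lower under ADI-PEG20 (-1.09) and 2.32-fold higher after arginine return than under ADI-PEG20 (1.21). Without background correction these were -0.69 and 0.78. FEN1, the flap nuclease, had 5349, 2809 and 3989, and on a second probe 1543, 898 and 1199. Its differences were -0.53 and -0.47 under ADI-PEG20 and 0.96 and 0.87 on arginine return against ADI-PEG20. Both probes of FEN1 were above untreated cells after arginine return, by 0.43 and 0.40.

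The fork protection genes were the role with the smallest differences under ADI-PEG20, from -0.19 to 0.01. None was past 1.5-fold, against 9.33% of all genes lower and 7.91% higher. TIMELESS had 806 after arginine return, 708 under ADI-PEG20 and 789.8 in untreated cells, and its partner TIPIN had 508, 475 and 474. WDHD1, which tethers polymerase alpha to the helicase, had 294, 316 and 322, a difference of -0.04 under ADI-PEG20 and of -0.22 after arginine return against untreated. A dimmer WDHD1 probe, below background under ADI-PEG20, had 166, 159 and 167 and gave -0.26 under ADI-PEG20 and 0.25 on arginine return against ADI-PEG20, the opposite sign to -0.17 on the brightest probe. CLSPN, the checkpoint adaptor claspin, had 171, 162.8 and 165, at the background limit, so its values say little. All but CLSPN were measured above background on all 3 arrays.

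Both CAF-1 genes, which encode the large subunits of the complex that places histones on new DNA, were lower under ADI-PEG20. Of all genes 50.3% were lower. CHAF1B was 1.5-fold or more lower with both arrays above background, against 7.52% of the 9988 genes above background on both. CHAF1B had 451 after arginine return, 298 under ADI-PEG20 and 463 in untreated cells, a difference of -0.95. CHAF1A had 212, 159 and 183, and was below background on the ADI-PEG20 array. After background correction CHAF1A was at least 1.46-fold lower under ADI-PEG20, and at least 2.13-fold higher after arginine return than under ADI-PEG20. Without correction these differences were -0.21 and 0.41, so neither fold is a bound on the deposited values. Its difference between arginine return and untreated was 0.54, the highest of the members, or 0.21 without background correction.

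Of the members 18 had several probes, and 14 had at least 2 above background on all 3 arrays. Between the 2 brightest of these, 12 of 14 members had the same sign under ADI-PEG20, with a median gap of 0.17 and a largest gap of 0.37. On arginine return against ADI-PEG20 13 of 14 had the same sign. On arginine return against untreated 7 of 14 did. FEN1, MCM3, MCM4, ORC6, RFC1 and RPA1 were above untreated on each probe counted here, and RFC3 was below on both.

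**Figure D4:**
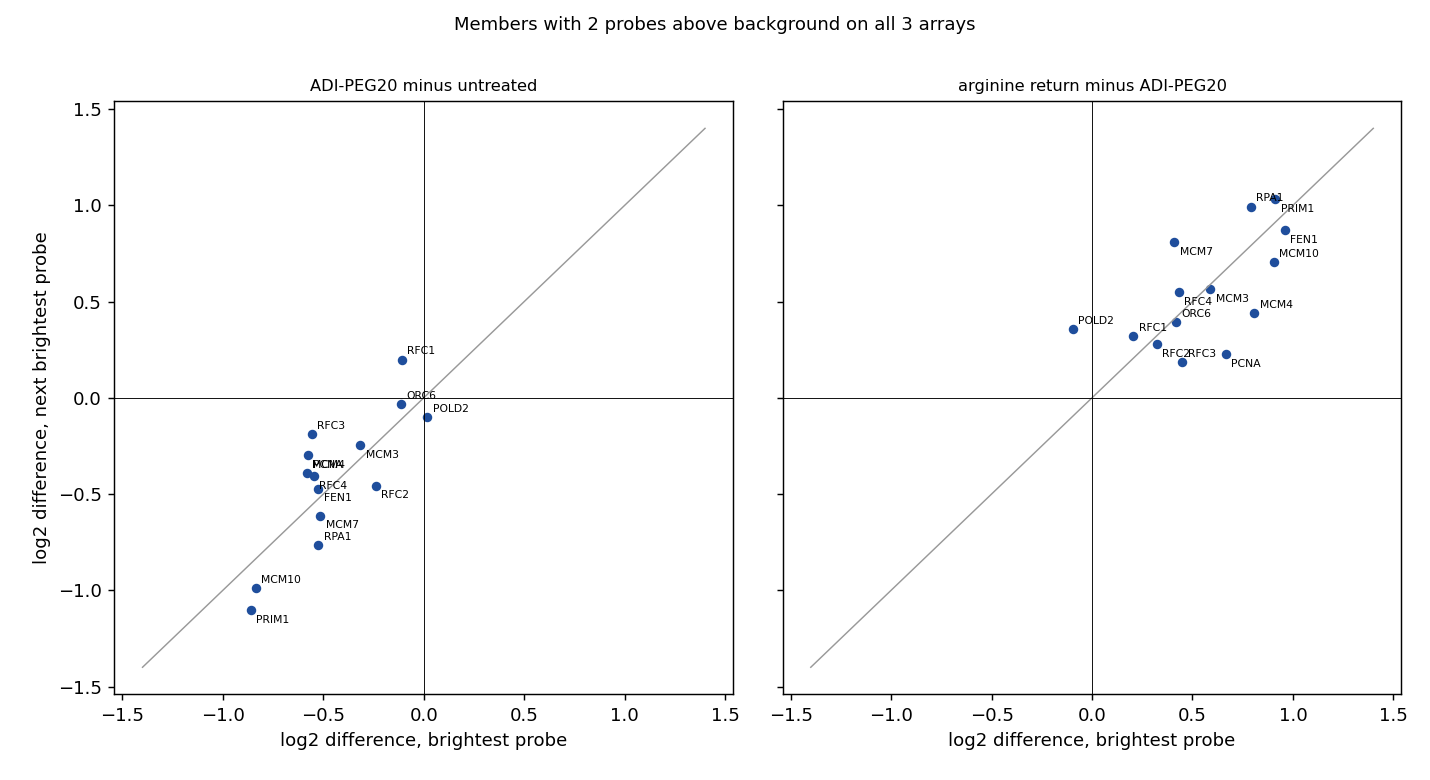
Log2 difference on the next brightest probe (vertical axis) against that on the brightest probe (horizontal axis) for the 14 members with at least 2 probes above background on all 3 arrays. The left panel is ADI-PEG20 minus untreated and the right panel arginine return minus ADI-PEG20, with the line of equal values. PRIM1 is lowest at left (-0.86, -1.10), and POLD2 lies off the line at right (-0.10, 0.36).

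Another list held 35 further replication factors, of which 30 were above background on at least 1 array of the ADI-PEG20 comparison. They were lower too, but by less, with a median of -0.24, 23 lower and 7 of them by 1.5-fold or more. Of all genes 50.3% were lower, and 9.33% by 1.5-fold or more. ASF1B, a histone chaperone that passes histones to CAF-1, had 1187 after arginine return, 619 under ADI-PEG20 and 1128 in untreated cells, a difference of -1.02. CHTF18, which pairs with DSCC1 in the alternative clamp loader, was at -0.98, or -0.45 without background correction. MTBP and RECQL4, both needed for origin firing, were at -0.96 and -0.91 (-0.38 and -0.37 without background correction), the fork factor DONSON at -0.77 and RNASEH2C, a ribonuclease subunit, at -0.63.

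The origin recognition subunits outside the 46 were flat or slightly higher under ADI-PEG20. ORC2 differed by 0.30, ORC4 by 0.23, ORC5 by 0.14 and ORC3 by -0.01, beside ORC1 at -0.44 and ORC6 at -0.11. These were named after their values were seen. After arginine return the 31 further factors above background had a median of 0.33 against ADI-PEG20. Of these 8 were higher by 1.5-fold or more, against 9.87% of all genes.

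Genes that supply nucleotides and histones in S phase were lower under ADI-PEG20 in 6 of 7 cases, against 50.3% of all genes. Their median was -0.40. RRM2, a ribonucleotide reductase subunit, had 924 after arginine return, 436 under ADI-PEG20 and 742 in untreated cells (-0.98 under ADI-PEG20). TYMS, thymidylate synthase, was at -0.74 and SLBP, the histone messenger binding protein, at -0.57. All 7 lay above untreated cells after arginine return, by 0.10 to 0.37, where 48.6% of all genes were higher. Of these, TK1, DUT, DCTPP1 and SLBP were within the probe error of 0.19 in that comparison. RRM1, RRM2 and TYMS were beyond it.

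Mitosis genes had larger differences under ADI-PEG20 than the replication members, with a median of -1.01 over 44 genes. Of these 38 were 1.5-fold or more lower, against 9.33% of all genes. CENPA, the centromeric histone, was at -1.99, KIF20A, a mitotic kinesin, at -1.93 and DLGAP5, a spindle factor, at -1.55. After arginine return the median of the mitosis genes against untreated was -0.17, with 38 of 44 lower. That of the replication members was 0.07, with 16 of 46 lower, where 51.3% of all genes were lower. The difference between the lists was not tested, since there was 1 array per condition.

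**Figure D5:**
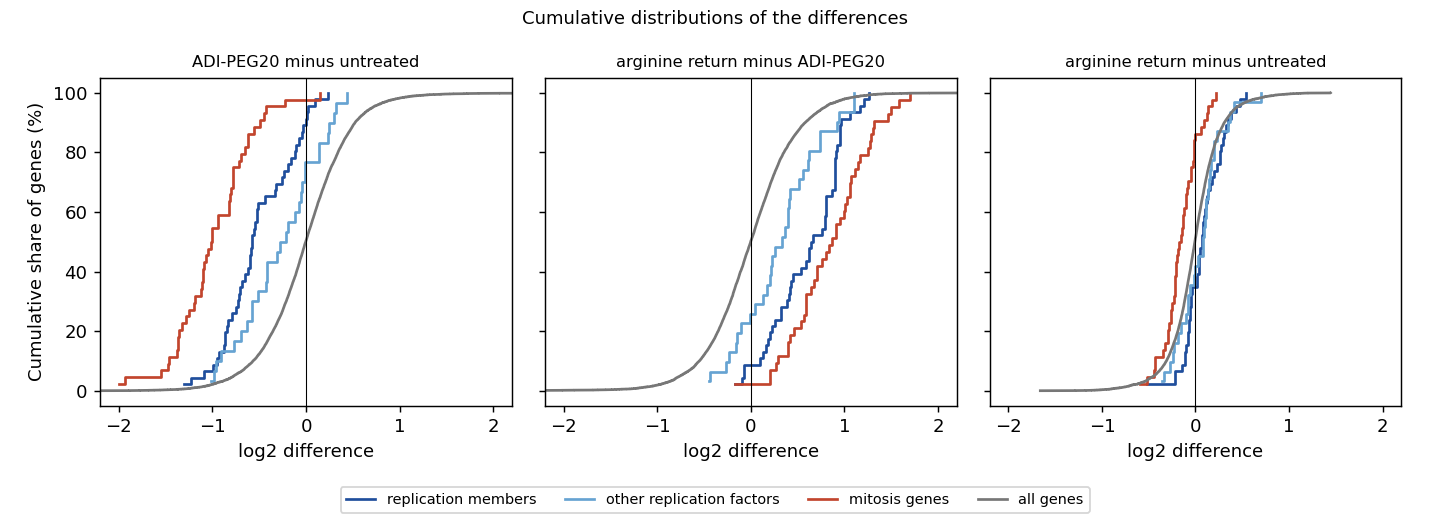
Cumulative share of genes (vertical axis, %) against the log2 difference (horizontal axis) for the replication members, the other replication factors, the mitosis genes and all genes above background, in the 3 comparisons. The members' curve lies between those of the mitosis genes (median -1.01) and all genes in the ADI-PEG20 panel, with a median of -0.58. It lies right of the mitosis curve in the last panel, with medians of 0.07 and -0.17.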

How the data were processed

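Biotin-labelled RNA from each condition was read on 1 Illumina bead array, per the labels' protocols. The authors deposited probe intensity on a linear scale. Of software, the submitters' processing notes name GenomeStudio. How values were normalized is not given in the sources used here. Minimum and maximum intensity (105.8 and 28717) were equal on all 3 arrays, as after quantile normalization, which hides any difference in RNA content per cell. A table of values before normalization was not used, because its 6 columns of per-sample values match no sample label.

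Intensity was corrected by normexp with the mode of the intensities, 137.1, as background mean, an SD of 8.84 and an exponential mean of 424.8. Values plus an offset of 16 were put on the log2 scale (Python 3.11.15, scipy 1.17.1). The background limit was the mode plus 3 SDs. A gene entered a comparison if its brightest probe was above the limit on at least 1 of the 2 arrays. A probe below it on 1 array gives a bound, set against the lowest value above background on that array. Probes were named through the platform annotation, updated by gene identifier for 30074 of 30113 probes with 1 gene. Precision is limited by having 1 array per condition, which allows no test. Thresholds were 1.5-fold and 2-fold. Named genes were all members, other replication factors past 1.5-fold on both arrays, and the 3 largest differences of the nucleotide and mitosis lists. Members and lists were chosen with earlier results of these data known. The steps were checked on simulated data.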

Additional observations from a re-analysis of the deposited data

How the results depend on the processing

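No paired analysis was possible because each condition had 1 array. The limits are the dim probes and the background correction, which widens differences near the limit. Without it, under ADI-PEG20 13 members were 1.5-fold or more lower and 1 was 2-fold lower (CDC45). Among all genes these shares were 2.93% and 0.451%. On arginine return against ADI-PEG20 the median was 0.42, with 15 members 1.5-fold and 0 members 2-fold higher (3.04% and 0.434% of all genes). With an offset of 50, 2 members were 2-fold higher there (0.894% of all genes). Under ADI-PEG20 14 were then 1.5-fold lower (5.21% of all genes) and 2 were 2-fold lower (0.910%), each 1.5 times fewer members. With genes above background on both arrays, 2 members were 2-fold higher on arginine return (1.52% of all genes). Averaging all probes of a gene, 2 members were lower there by any amount, where with the brightest probe 50.1% of all genes were lower. The cause of these shifts was not tested. The other member medians and counts under these settings, with no filter, and with dim genes set to their bound (added after seeing the data) moved by less than the probe error, or by less than 1.5 times. No called value changed sign under these settings. The table before normalization with limma's neqc was not run.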
